A study of Mus musculus with 6 samples.

Results

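DNA replication and mitosis genes are the core machinery of the cell cycle, and 44 of them were followed here in mouse tumour-derived organoids. They were chosen by gene symbol, and all 44 were found among the 23224 genes of the table. By role they fell into 19 S phase genes, 20 mitosis genes and 5 genes of cell cycle entry (Myc, Ccnd1, E2f1, E2f2 and Mybl2). RNA was sequenced from organoids labelled AKP, grown from tumours that had formed in vivo. A Control group and a SOX17KO group, in which Sox17 was deleted with CRISPR-Cas9, had 3 libraries each. Both groups were AKP organoids, and the labels give no clone, culture or guide for any library. SOX17 is an endoderm transcription factor, and the study asked what it does in colon cancer. The labels do not say that replicates came from separate cultures, so p-values measure only the spread between these libraries.

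A dividing cell copies its DNA in S phase and separates the copies in mitosis. Before S phase, Cdc6 and Cdt1 load a ring of the subunits Mcm2 to Mcm7 onto DNA; Cdc45 and the GINS complex then turn the ring into the active helicase. Many of these genes are transcribed around the start of S phase by E2F factors. The mitosis genes are transcribed later, through CCAAT boxes and a cell cycle homology region (CHR) bound by the DREAM and MuvB complexes with Mybl2 and Foxm1. In intestinal epithelium these transcripts mark the dividing cells of the crypt. In bulk RNA, fewer dividing cells and less RNA per dividing cell cannot be told apart.

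The promoters show the difference between the S phase and mitosis genes that the rule did not use, and are printed for that reason. Sequences were taken from RefSeq on GRCm38.p6, as windows of 250 bases before to 50 after each start site; 33 of the 44 genes were matched. Shown 5′ to 3′ are the stretches before the start site that hold the motifs, with up to 12 bases on each side. For 3 subunits of the MCM ring, capitals mark E2F octamers, which were TTTGGCGC, TTTCGCGC, TTTCCCGC or TTTGCCGC on either strand, and other motifs are left in lower case. Mcm5 lies at chr8:75109344-75109379 on the + strand, Mcm6 at chr1:128359733-128359827 on the - strand and Mcm7 at chr5:138172029-138172060 on the - strand.
Mcm5: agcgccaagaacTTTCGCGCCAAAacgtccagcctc
Mcm6: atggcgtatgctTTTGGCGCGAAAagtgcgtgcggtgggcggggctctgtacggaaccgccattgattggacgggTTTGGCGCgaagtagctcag
Mcm7: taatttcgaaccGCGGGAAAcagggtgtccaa

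The Mcm7 stretch also holds a CHR hexamer, ttcgaa, beside its E2F octamer. A further window for Mcm7 held neither motif. Of the subunits not printed, Mcm3 held an E2F octamer, Mcm2 held none and Mcm4 had no window. In Mcm5, and at the left end of Mcm6, a pair of octamers on opposite strands overlap in 1 run of capitals. For 3 mitosis genes, capitals mark CHR hexamers (TTTGAA or TTCGAA) and CCAAT boxes on either strand, so that ATTGG and TTCAAA are marked too. Cdc20 lies at chr4:118437344-118437408, Top2a at chr11:99024195-99024428 and Mki67 at chr7:135716460-135716579, each on the - strand.
Cdc20: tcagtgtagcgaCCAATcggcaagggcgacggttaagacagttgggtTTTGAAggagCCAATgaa
Top2a: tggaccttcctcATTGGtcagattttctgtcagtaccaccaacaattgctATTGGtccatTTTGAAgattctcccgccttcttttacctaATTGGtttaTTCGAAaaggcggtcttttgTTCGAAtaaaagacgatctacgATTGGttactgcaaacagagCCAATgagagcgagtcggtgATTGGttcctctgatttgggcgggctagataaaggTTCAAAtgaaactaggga
Mki67: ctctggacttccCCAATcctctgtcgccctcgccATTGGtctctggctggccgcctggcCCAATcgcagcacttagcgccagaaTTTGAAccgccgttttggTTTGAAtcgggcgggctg

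Over the full 300-base windows, an E2F octamer was found in 7 of 15 S phase genes (46.7%) and in 1 of 15 mitosis genes (6.67%), against 4.77% of 8667 tested genes with a window. A CHR hexamer was found in 12 of 15 mitosis genes (80.0%) and in 3 of 15 S phase genes (20.0%), against 16.3% of tested genes. The 3 S phase genes were Mcm2, Mcm7 and Cdc45, and the 1 mitosis gene with an E2F octamer was Cdk1, which also held a CHR hexamer. CCAAT was common to both, in 14 of 15 mitosis genes and 11 of 15 S phase genes, against 43.8% of tested genes. All 12 mitosis genes with a CHR hexamer also held CCAAT, as did 6.96% of tested genes. No E2F octamer contains a CHR hexamer or CCAAT, and a match of letters is a description, not a binding site. Genes of the same processes outside the 44 divided in the same direction. E2F octamers were found in 12 of 36 other replication genes and 4 of 46 other mitosis genes, and CHR hexamers in 6 and 33 of them.

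**Figure D1:**
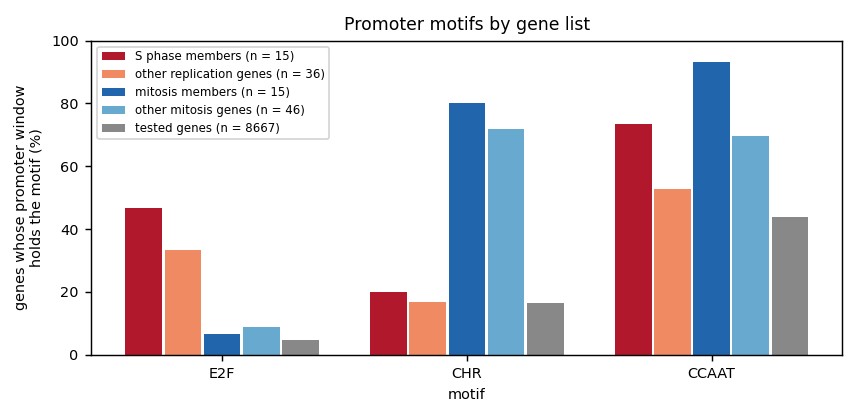
Share of genes, in percent, whose 300-base promoter window holds each motif at least once, by gene list, with the number of genes that have a window. The E2F bars are tallest for S phase genes (46.7%) and the CHR bars for mitosis genes (80.0%), while tested genes as a whole are at 4.77% and 16.3%.

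Library totals ran from 18290912 to 27503254 expected counts. Levels are given as CPM, the count scaled to a common library size, always in the order of replicates 1, 2 and 3. Sox17 had 34.4, 34.5 and 34.2 CPM in Control, against 33.8, 41.9 and 45.1 CPM in SOX17KO (edgeR adjusted p = 0.345). Its transcript level therefore does not check the labels, and the groups are named as labelled. SOX17KO replicate 1 stood apart: its log2 CPM correlated at 0.960 and 0.963 with SOX17KO replicates 2 and 3, which correlated with each other at 0.986. Results are given with and without it. Summed fibroblast markers were at 0 to 0.0724 CPM in Control and 0.111 to 0.420 CPM in SOX17KO, with Col3a1, Dcn, Lum and Thy1 at 0 counts in every library. Immune and endothelial markers summed to 8.79 to 11.1 CPM in Control and 4.95 to 14.1 CPM in SOX17KO, most of it Cd68. Cd3e was at 0 counts in every library. Of the epithelial genes Epcam, Cdh1, Krt8, Krt18, Krt19, Vil1 and Cdx2, Epcam was called higher in SOX17KO (log2 fold change 0.34, edgeR adjusted p = 0.0343) and the others were not called. Without SOX17KO replicate 1, Epcam, Cdh1 and Krt18 were called higher. Cdx1 was not tested, with 23 counts in SOX17KO replicate 1 and 0 or 1 in each other library.

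Between the groups, none of the 44 genes was called higher or lower by edgeR's quasi-likelihood test with Benjamini-Hochberg adjustment over 12137 tested genes. Over all tested genes 3.67% were called higher and 3.2% lower. An unadjusted edgeR p below 0.05 was seen for 4 of the 44, against 2463 of the 12137 tested genes. The 4 were Mcm7, Cenpe, Foxm1 and Ccnb2, each with a negative log2 fold change. DESeq2 called 1 of the 44, Mcm7, as lower (adjusted p = 0.0398), against 677 of the 12137 tested genes. Limma-voom called 0 of the 44, against 395 of the tested genes lower and 363 higher. The median log2 fold change (SOX17KO minus Control) was -0.01 for S phase genes, -0.07 for mitosis genes and 0.04 for entry genes, against 0.01 for all tested genes. Groups did not overlap for 4 of the 44 genes (9.09%), against 28.2% of all tested genes. These small group differences covered large differences between SOX17KO libraries.

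SOX17KO replicate 1 was the highest of all 6 libraries for 17 of 19 S phase genes and 13 of 20 mitosis genes, as it was for 30.1% of tested genes. SOX17KO replicates 2 and 3 were both below every Control library for 14 of 19 S phase genes and 13 of 20 mitosis genes, against 24.4% of tested genes. Both patterns together, replicate 1 above and replicates 2 and 3 below all Control libraries, were present in 22 of the 44 genes (50%) and in 7.05% of tested genes. The median log2 difference of S phase genes from the Control mean was 0.39, -0.29 and -0.34 in SOX17KO replicates 1, 2 and 3. For mitosis genes it was 0.15, -0.23 and -0.22. Thus, among the 44, S phase genes stood further from Control than mitosis genes in replicate 1. They did so by a smaller margin in replicates 2 and 3, and this difference was not tested. Outside the 44, the medians were 0.35, -0.22 and -0.22 for other replication genes and 0.21, -0.27 and -0.21 for other mitosis genes. In replicate 2 the order was thus reversed outside the 44, and in replicate 3 the lists lay close together. All tested genes had medians of 0.01, 0.003 and 0.002 in those libraries.

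**Figure D2:**
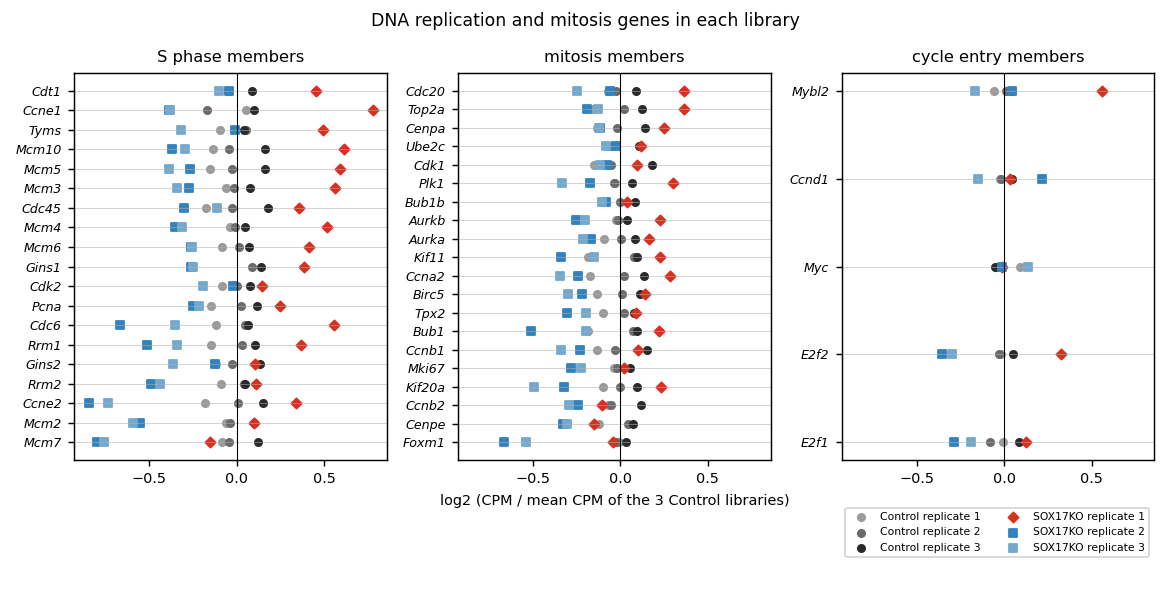
Log2 of each library's CPM over the mean of the 3 Control libraries, for each of the 44 genes, ordered within a role by fold change; each point is 1 library. SOX17KO replicate 1 (diamonds) lies to the right of the other libraries for 33 of 44 genes, while SOX17KO replicates 2 and 3 (squares) lie left of all Control libraries for 29.

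The Control libraries also differed together on a smaller scale. Control replicate 1 was the lowest Control library for 37 of the 44 genes (84.1%), against 37.0% of tested genes. S phase medians were -0.10, -0.01 and 0.10 in Control replicates 1, 2 and 3, and mitosis medians -0.10, -0.01 and 0.10. Unlike SOX17KO replicate 1, the Control libraries showed no separation of S phase from mitosis genes. The summed CPM of S phase genes was 0.571, 0.572 and 0.576 of that of mitosis genes in Control replicates 1, 2 and 3. It was 0.627, 0.505 and 0.508 in SOX17KO replicates 1, 2 and 3. Without Mcm7, Mcm2 and Foxm1, which lie on chromosomes with runs of lower genes (described further on), it was 0.424 to 0.431 in Control and 0.504, 0.402 and 0.404 in SOX17KO.

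**Figure D3:**
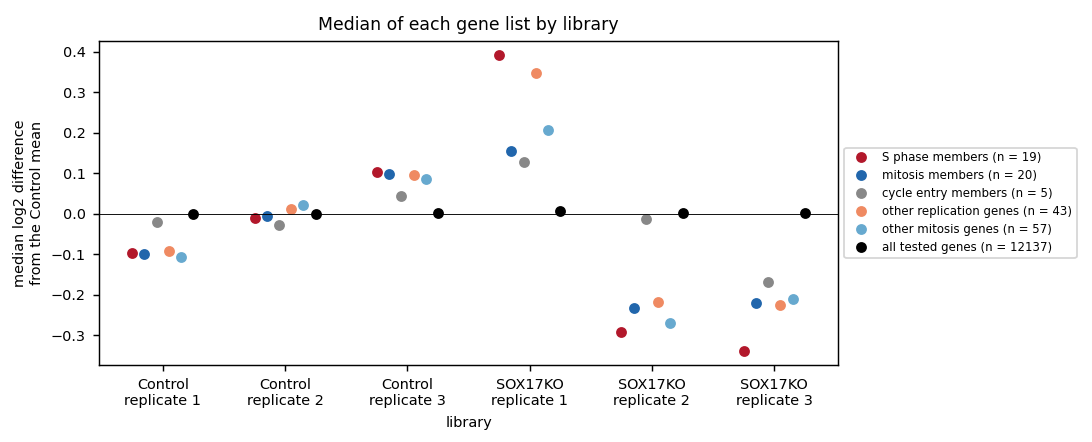
Median log2 difference from the Control mean in each library, by gene list, with the number of genes; each point is 1 list in 1 library. In SOX17KO replicate 1 the S phase genes (0.39) and other replication genes (0.35) lie above the mitosis genes (0.15) and other mitosis genes (0.21). In SOX17KO replicates 2 and 3 each S phase and mitosis list lies at -0.21 or lower while all tested genes stay near 0.

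Leaving out SOX17KO replicate 1 turned the absence of calls into a set of lower calls. EdgeR then called 22 of the 44 genes lower and 0 higher (12 S phase, 9 mitosis and 1 entry gene), against 10.3% of tested genes lower and 11.9% higher. The 44 had a median log2 fold change of -0.26 in that fit. That fit set SOX17KO replicates 2 and 3 against the 3 Control libraries. The library left out was the highest for 33 of the 44, so removing it by itself lowers the SOX17KO mean of those 33. The genes also moved together within a library, so these calls do not count as independent results. Leaving out any one of the other libraries called 0 of the 44. Beside this, the summed epithelial markers were at 9664 CPM in SOX17KO replicate 1 and at 13144 to 13932 CPM in the other libraries. Krt8, Krt18 and Krt19 carried that difference, while Epcam, Cdh1 and Cdx2 were above every Control library in SOX17KO replicate 1 and Vil1 was inside the Control range. The immediate early genes, which cells induce within minutes of a stimulus, summed to 248 CPM there and to 330 to 431 CPM elsewhere. Jun, of the same list, went the other way, at 18.1 to 19.5 CPM in Control, against 59.1, 37.8 and 55.9 CPM in SOX17KO, and was called higher (log2 fold change 1.43, edgeR adjusted p = 0.00511). Cd68 was at 4.65 CPM in that library and at 7.99 to 13.3 CPM elsewhere. The part of these in the result was not tested.

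Genes that start S phase gave the widest spread. Ccne1 and Ccne2 encode cyclin E, the partner of Cdk2 at the start of S phase. Ccne2 was at 19.3, 22.0 and 24.3 CPM in Control, against 27.6, 12.1 and 13.1 CPM in SOX17KO. The SOX17KO libraries thus lay on both sides of Control, and the log2 fold change of -0.31 ± 0.31 (SE) was not called (edgeR adjusted p = 0.687). Without SOX17KO replicate 1, Ccne2 was lower, at -0.80 ± 0.12 on the log2 scale (edgeR adjusted p = 0.00129), the largest change in size among the 44 in that fit. Ccne1 was at 15.2 to 18.3 CPM in Control, against 29.2, 13.0 and 13.1 CPM in SOX17KO. Cdk2 varied less, from 53.0 to 59.1 CPM in Control and from 49.1 to 62.0 CPM in SOX17KO. The loading factor Cdc6 was at 28.3 to 32.1 CPM in Control, against 45.2, 19.3 and 24.1 CPM in SOX17KO. The other loading factor, Cdt1, was high in SOX17KO replicate 1 alone (71.6 CPM), while replicates 2 and 3 (50.7 and 48.7 CPM) lay at or just under the low end of the Control range of 50.7 to 55.6 CPM.

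The MCM ring is built from 1 copy of each of the subunits Mcm2 to Mcm7. Mcm3 was at 149, 153 and 163 CPM in Control, against 229, 128 and 122 CPM in SOX17KO. Mcm4 was at 136.5, 139.3 and 144.9 CPM in Control, against 201, 109.6 and 113 CPM in SOX17KO. Mcm5 was at 160.5, 174.8 and 199.6 CPM in Control, against 269, 148 and 136 CPM in SOX17KO. All 3 had SOX17KO replicate 1 as the highest library and replicates 2 and 3 as the lowest. Mcm6 was at 188, 201 and 210 CPM in Control, against 266, 166 and 167 CPM in SOX17KO, the same arrangement. The log2 fold changes of these 4 genes were between 0.001 and 0.05, with 95% intervals that together reach from -0.56 to 0.66, so changes of that size in either direction are compatible with these libraries.

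Mcm7 and Mcm2 departed from the other subunits. Mcm7 was at 462, 475 and 533 CPM in Control, against 441, 282 and 289 CPM in SOX17KO. Every SOX17KO library was below every Control library, including replicate 1, in which Mcm3 to Mcm6 were at their highest. The log2 fold change was -0.54 ± 0.18 (SE; edgeR adjusted p = 0.145), the largest in size of the 44, and -0.78 without SOX17KO replicate 1 (edgeR adjusted p = 0.000114). Over all leave-one-out fits and other settings its adjusted p ran from 0.000114 to 0.385. Mcm2 was at 190.3, 193 and 212 CPM in Control, against 213, 135.3 and 131.5 CPM in SOX17KO; its log2 fold change was -0.31 ± 0.19 (edgeR adjusted p = 0.435). Its SOX17KO replicate 1 value was level with the highest Control library.

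Shares within a library do not depend on its depth. Mcm7 made up 35.9%, 35.5% and 36.5% of the summed CPM of Mcm2 to Mcm7 in Control and 27.3%, 29.1% and 30.1% in SOX17KO. The means were 36.0% ± 0.464 and 28.8% ± 1.45 (SD, n = 3), a difference of -7.15 percentage points. The groups did not overlap, and the exact two-sided permutation test gave p = 0.1, the smallest that 3 against 3 libraries allow. Leaving out each library in turn gave differences from -7.81 to -6.37. The shares add up to a whole, so a lower share of Mcm7 leaves more for the other subunits together. Those of Mcm3, Mcm4, Mcm5 and Mcm6 were higher in all SOX17KO libraries. That of Mcm2 was lower all the same (14.6% ± 0.187 against 13.6% ± 0.429). The exact p was 0.1 for each of the 6 subunits, and 0.1 after adjustment over them. Per kilobase of exon (GENCODE M21 models), Mcm7 was at 165 ± 12.8 CPM per kilobase in Control and the other 5 subunits at 39.1 to 58.9. In SOX17KO Mcm7 was at 114 ± 30.4 CPM per kilobase and the others at 39.3 to 53.3, so Mcm7 remained the most abundant subunit transcript.

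**Figure D4:**
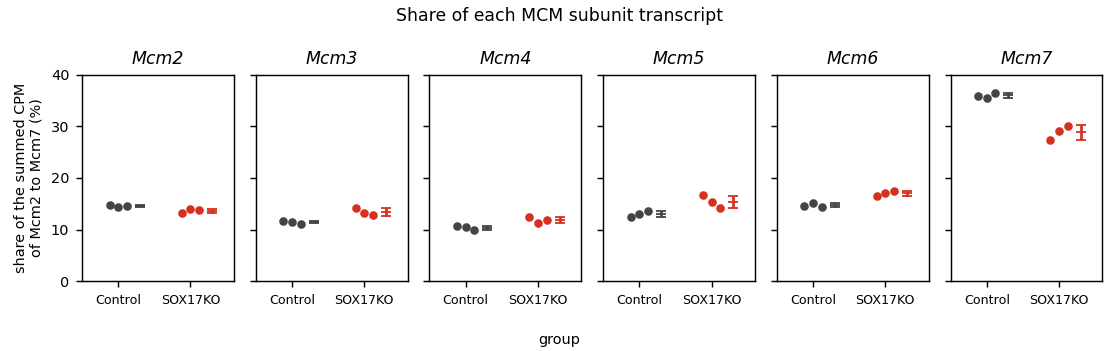
Share of each subunit, in percent, of the summed CPM of Mcm2 to Mcm7; points are libraries in replicate order, and bars show the mean and SD of 3 libraries per group. Mcm7 takes 35.5% to 36.5% in Control and 27.3% to 30.1% in SOX17KO, while Mcm3 to Mcm6 are each higher in all SOX17KO libraries than in Control.

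Position set Mcm7 and 2 other genes apart. Among its 20 nearest tested neighbours on chromosome 5, in RefSeq gene order on GRCm38.p6, all 20 had a negative log2 fold change and 12 were called lower (edgeR), with a median of -0.65. Adjacent to Mcm7 were Cops6 (-0.64, edgeR adjusted p = 0.00656) and Ap4m1 (-0.65, adjusted p = 0.00651). Mcm7 at -0.54 was thus within the range of its neighbours. Mcm2 and Foxm1 lie on chromosome 6, where 75.4% of 586 matched tested genes had a negative log2 fold change, with a median of -0.24. The 20 neighbours of Mcm2 had a median of -0.31, the value of Mcm2 itself, and 19 were negative, though 0 were called. Those of Foxm1 had a median of -0.30, with 18 negative and 3 called lower. For the other 41 genes the neighbours' medians were between -0.09 (Ccnd1, with 11 tested neighbours) and 0.17. What moved these runs of neighbours was not tested.

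**Figure D5:**
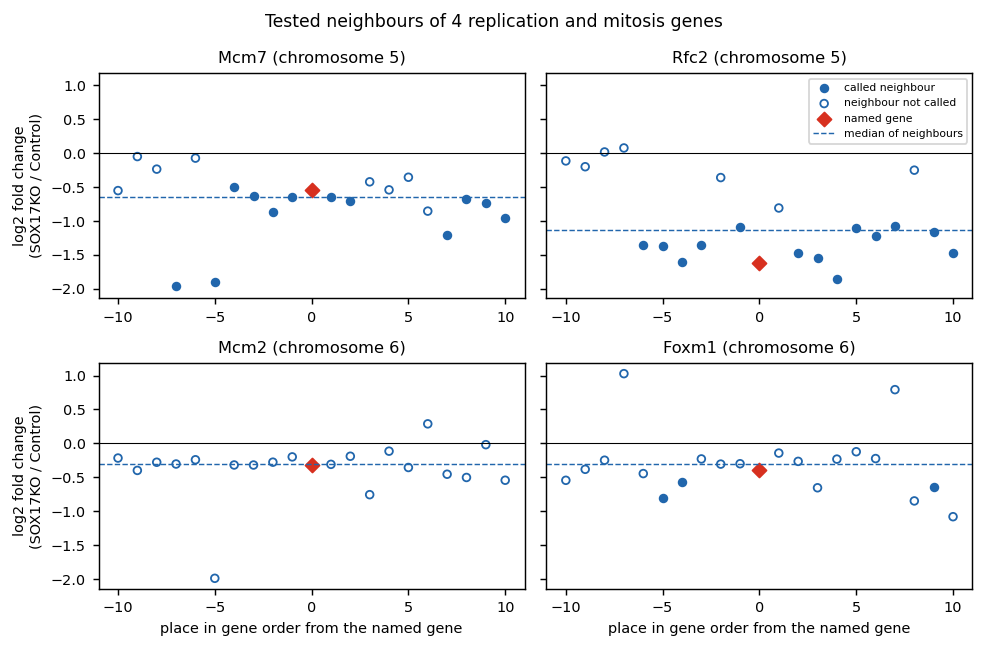
Log2 fold change (SOX17KO over Control) of Mcm7, Rfc2, Mcm2 and Foxm1 (diamonds) and of the 10 tested genes on each side of each, by place in gene order; filled circles passed edgeR's test at an adjusted p below 0.05. Mcm7 (-0.54), Mcm2 (-0.31) and Foxm1 (-0.39) lie near the median of their neighbours (-0.65, -0.31 and -0.30), and Rfc2 (-1.62) lies below its neighbours' median of -1.13.

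Without Mcm7, Mcm2 and Foxm1, the other 41 genes had a median log2 fold change of -0.05 and a range of -0.31 to 0.18. Leaving out SOX17KO replicate 1, 19 of those 41 were called lower, against 10.3% of all tested genes. The lower calls in that fit were thus not limited to the chromosome 5 and 6 genes.

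Most helicase activators and fork factors had SOX17KO replicate 1 highest, Gins2 being the exception. Mcm10, which helps to start the helicase, was at 35.2 to 43.4 CPM in Control, against 59.4, 30.02 and 31.6 CPM in SOX17KO. Cdc45 was at 45.5 to 58.2 CPM in Control, against 65.8, 41.8 and 47.6 CPM in SOX17KO. The GINS subunit genes Gins1 and Gins2 ranged from 10.1 to 13.2 and from 19.7 to 23.5 CPM in Control, and their log2 fold changes were -0.01 and -0.11. Per kilobase Gins2 was the lowest of the 44, at 5.50 ± 0.497 CPM per kilobase in Control. Pcna, the sliding clamp of the fork, was the most abundant of the 44 per kilobase, at 223 ± 20.2 CPM per kilobase in Control. It was at 305, 343 and 366 CPM in Control, against 401, 284 and 291 CPM in SOX17KO, a log2 fold change of -0.05 (95% interval -0.41 to 0.30).

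Rrm1 and Rrm2 encode the subunits of ribonucleotide reductase, which makes DNA precursors. Rrm1 was at 271, 307 and 323 CPM in Control, against 388, 210.2 and 237 CPM in SOX17KO. Rrm2 was at 192, 211 and 212 CPM in Control, against 221, 146 and 151 CPM in SOX17KO, so that replicates 2 and 3 lay further below Control than replicate 1 lay above it. Neither was called over all libraries (edgeR adjusted p = 0.861 and 0.490). Both were lower without SOX17KO replicate 1, with log2 fold changes of -0.43 (edgeR adjusted p = 0.00871) and -0.47 (adjusted p = 0.00147). Tyms, the thymidylate synthase gene, was at 53.0 to 58.7 CPM in Control, against 79.8, 56.2 and 45.5 CPM in SOX17KO, and was not called in either fit.

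Mitosis genes were nearer to Control in SOX17KO replicate 1. Mki67, the proliferation marker that coats mitotic chromosomes, was at 1161, 1176 and 1235 CPM in Control, against 1207, 978 and 1016 CPM in SOX17KO. Replicate 1 was inside the Control range and replicates 2 and 3 below it (log2 fold change -0.16 ± 0.10, edgeR adjusted p = 0.482). Top2a, the topoisomerase that untangles sister chromatids, was at 609.9, 691 and 739.6 CPM in Control, against 876, 595.1 and 622.5 CPM in SOX17KO. Its replicate 1 value exceeded every Control library, in contrast with Mki67, and its log2 fold change was 0.04 (95% interval -0.35 to 0.42).

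The cyclins that carry cells through G2 and mitosis covered both arrangements. Ccna2, cyclin A, was at 249, 286 and 309 CPM in Control, against 342.8, 237.2 and 221.5 CPM in SOX17KO. Ccnb1, a cyclin B gene, was at 208 to 254 CPM in Control, against 244.5, 194.5 and 180.3 CPM in SOX17KO. Ccnb2, the other cyclin B gene, was at 108.5, 109.8 and 123.6 CPM in Control, against 106, 96.4 and 93.0 CPM in SOX17KO. All SOX17KO libraries of Ccnb2 were below Control, replicate 1 included, and its log2 fold change was -0.21 ± 0.09 (edgeR adjusted p = 0.246). Their kinase Cdk1 was at 147 to 186 CPM in Control, against 175, 155 and 151 CPM in SOX17KO, so the groups overlapped fully (log2 fold change -0.03, 95% interval -0.29 to 0.23).

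Foxm1, the transcription factor that drives mitotic genes, was at 91.7, 90.5 and 94.3 CPM in Control, against 89.5, 58.1 and 63.5 CPM in SOX17KO. Replicate 1 was just under the lowest Control library and replicates 2 and 3 were well below it. The log2 fold change was -0.39 ± 0.16 (edgeR adjusted p = 0.232), and -0.60 ± 0.07 without SOX17KO replicate 1 (adjusted p = 0.000317). As described above, its chromosome 6 neighbours had a median of -0.30. Cdc20, an activator of the anaphase-promoting complex, was at 154 to 173 CPM in Control, against 209, 156 and 137 CPM in SOX17KO, so that replicate 1 lay above and replicate 3 below every Control library. Ube2c, the ubiquitin-conjugating enzyme of that complex, was at 147 to 164 CPM in Control, against 166, 150.0 and 144 CPM in SOX17KO, the log2 fold change nearest 0 among mitosis genes (0.004, 95% interval -0.21 to 0.21).

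Of the kinetochore, checkpoint and spindle genes among the 44, Cenpe alone had groups that did not overlap. Outside the 44, groups did not overlap for 3 of 57 other mitosis genes (5.26%), against 28.2% of all tested genes. The 3 were Cenpf, Kif23 and Cdca3, and Cdca3 lies on chromosome 6, where its neighbours had a median of -0.23. Cenpe, a kinesin of the kinetochore, was at 221, 249 and 254 CPM in Control, against 217, 192 and 195 CPM in SOX17KO. Replicate 1 lay just under the lowest Control library, and its log2 fold change was -0.26 ± 0.09 (edgeR adjusted p = 0.160). Its neighbours on chromosome 3 had a median of 0.002. Cenpa, the centromeric histone, was at 78.5 to 94.8 CPM in Control, against 102.1, 79.2 and 79.1 CPM in SOX17KO. The checkpoint genes Bub1 and Bub1b had log2 fold changes of -0.13 and -0.05. The mitotic kinases Plk1, Aurka and Aurkb were at -0.04, -0.06 and -0.06, and Birc5, the survivin subunit that works with Aurkb, at -0.11. The spindle genes Kif11, Kif20a and Tpx2 were at -0.07, -0.16 and -0.13. In the fit without SOX17KO replicate 1, Plk1, Aurkb, Kif20a and Tpx2 were called lower, and Aurka, Birc5, Bub1, Bub1b, Cenpa and Kif11 were not.

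The 5 genes of cell cycle entry differed among themselves. Myc, a growth transcription factor, was at 136, 125 and 124 CPM in Control, against 127, 127 and 141 CPM in SOX17KO, with overlapping groups (log2 fold change 0.04, 95% interval -0.16 to 0.23). Ccnd1, which encodes cyclin D1, was the most abundant entry gene at 632, 635 and 663 CPM in Control and 659, 746 and 579 CPM in SOX17KO. Neither shared the arrangement of the S phase genes, since replicate 1 was inside the Control range for both. E2f1 was at 23, 21.8 and 24.5 CPM in Control, against 25.2, 19.0 and 20.2 CPM in SOX17KO. E2f2, another activator of S phase genes, was at 32.3, 32.1 and 33.9 CPM in Control, against 40.95, 25.6 and 26.6 CPM in SOX17KO; it was the 1 entry gene called lower without SOX17KO replicate 1 (edgeR adjusted p = 0.0182). Mybl2 was at 74.5, 78.1 and 80.0 CPM in Control, against 115, 80.1 and 69.0 CPM in SOX17KO, high in replicate 1 alone.

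The rest of the pathway was read from lists chosen with earlier results of these data known. The 43 other replication genes had a median log2 fold change of 0.01. Of them, 1 was called lower and 0 higher, against 3.2% and 3.67% of all tested genes. The 1 was Rfc2, a subunit of the clamp loader that places Pcna on DNA, at 70.9, 77.7 and 86.1 CPM in Control and 31.3, 23.1 and 21.9 CPM in SOX17KO. All SOX17KO libraries were far below Control, and the log2 fold change was -1.62 ± 0.15 (edgeR adjusted p = 0.00207; 2.5e-06 to 0.0193 over leave-one-out fits). Rfc2 lies on chromosome 5, where 13 of its 20 neighbours were called lower, with a median of -1.13. The other clamp loader subunits Rfc1, Rfc3, Rfc4 and Rfc5 had log2 fold changes of 0.06, 0.29, 0.10 and -0.14, with none called. Of 57 other mitosis genes 0 were called, with a median of -0.07. An unadjusted edgeR p below 0.05 was seen for 4 of the 57, against 2463 of all 12137 tested genes. DESeq2 called 2 of the 57 lower, against 677 of 12137 tested genes, and limma-voom called 0 lower, against 395. Without SOX17KO replicate 1, edgeR called 14 of the 43 and 21 of the 57 lower and none higher. In that fit 10.3% of all tested genes were called lower and 11.9% higher.

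A list of 26 Rb pathway and CDK inhibitor genes, which included E2f3 to E2f8, had a median log2 fold change of 0.13. Of these 26, 1 was called higher and 0 lower, against 3.67% and 3.2% of all tested genes. Cdkn2a, which encodes a CDK4 and CDK6 inhibitor and the p53 regulator ARF, was at 71.5, 72.8 and 78.1 CPM in Control, against 107, 114 and 102 CPM in SOX17KO. It rose in all SOX17KO libraries, replicate 1 included, by 0.54 ± 0.08 (edgeR adjusted p = 0.0104). It was not called without any one Control library (edgeR adjusted p = 0.0805, 0.0866 and 0.0570 without replicates 1, 2 and 3). Chosen after their values were seen, Ccnd2 and Cdkn1a differed between SOX17KO libraries. Ccnd2, cyclin D2, was at 251.2 to 265.6 CPM in Control, against 681, 279 and 622 CPM in SOX17KO (edgeR adjusted p = 0.102), and it was called higher without SOX17KO replicate 1 (0.0402) and without replicate 2 (0.00254), and by DESeq2 with all libraries (0.00479). Cdkn1a, which encodes the CDK inhibitor p21, was at 59.3 to 76.6 CPM in Control, against 29.3, 97.3 and 122 CPM in SOX17KO. Its replicate 1 was the lowest of all libraries and replicates 2 and 3 the highest, opposite to the S phase genes. It was called higher only in the fit without SOX17KO replicate 1 among those run (0.65, edgeR adjusted p = 0.00412).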

How the data were processed

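The table the authors deposited holds RSEM expected counts, which need not be whole, for 6 libraries named in its columns. Bowtie, RSEM and build mm9 come from the submitters' processing notes; versions, annotation and strand setting, not given in the sources used here, remain unknown. Per the labels, libraries were directional after poly(A) selection. Counts were rounded and tested with edgeR 4.0.16 in R 4.3.3 (quasi-likelihood F test, TMM, filterByExpr with a minimum count of 10 and total of 15, genotype as the only term, Benjamini-Hochberg adjustment over 12137 genes, called below 0.05). CPM use unrounded counts and TMM-scaled library sizes; log2 CPM have a prior count of 2, and an SE is the log2 fold change over the square root of F. Without molecular identifiers, depth gives counting error only. Alternatives were RLE factors, library totals, other filters, DESeq2 1.42.0, limma-voom (limma 3.58.1), unrounded values, a replicate block and each library left out. Gene order came from RefSeq, matching 12015 tested genes (99.0%); with mm9 as the files' build, no gene coordinates are given beyond those of the printed RefSeq promoters. The 44 genes, their roles, the other lists and the rule for values in every library (the 3 most abundant and 3 largest changes per role, the MCM ring, E2f1, Foxm1, Mybl2) were chosen with earlier results of these data known. For Adgre1 the table's older symbol Emr1 was used. The edgeR procedure was tested on simulated counts drawn for each gene independently. Those counts held no shift shared by many genes within a library, so that test does not cover such shifts. Figures were drawn with matplotlib 3.10.9.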

Additional observations from a re-analysis of the deposited data

How the results depend on the processing

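Of the 44 genes, the number called was 0 under every setting run except DESeq2 (1 S phase gene lower) and the fit without SOX17KO replicate 1. Leaving out each library gave 0 to 12 S phase, 0 to 9 mitosis and 0 to 1 entry genes lower, 1 to 14 other replication and 0 to 21 other mitosis genes lower, and 0 to 6 Rb pathway genes higher and 0 to 4 lower; over all genes, 97 to 1453 were higher and 94 to 1255 lower. DESeq2 called 748 genes higher and 677 lower, with 2 other mitosis genes lower and 2 Rb pathway genes higher. The replicate number as a block gave 183 higher and 143 lower and 0 Rb pathway genes higher, so Cdkn2a was not called (edgeR adjusted p = 0.0783). Same-numbered libraries did not deviate together (correlations -0.19, -0.05 and -0.18), so the numbers are not taken as pairs. Near-zero log2 fold changes changed sign: Mcm3, Mcm4, Mcm5 and Mcm6 to -0.0194, -0.0518, -0.0174 and -0.0345 with limma-voom and to -0.0185, -0.0507, -0.0187 and -0.0353 with the replicate block, Mcm4 to -0.00783 and Mcm6 to -0.0169 with no low-count filter, and Mcm6 to -0.00111 with RLE factors and -0.00132 with DESeq2. Leaving out each library gave ranges of -0.31 to 0.20 for Mcm3, -0.34 to 0.16 for Mcm4, -0.33 to 0.23 for Mcm5, -0.26 to 0.12 for Mcm6, -0.23 to 0.0334 for Pcna, -0.43 to 0.0563 for Rrm1, -0.30 to 0.0449 for Ccna2, -0.16 to 0.14 for Top2a, -0.33 to 0.0472 for E2f2, -0.0572 to 0.13 for Ccnd1, -0.0125 to 0.0831 for Myc and -0.0564 to 0.33 for Mybl2. The causes were not tested. Mcm7, Mcm2, Foxm1, Cenpe, Ccnb2, Ccne2, E2f1 and Mki67 were negative under all settings run on them. The share of Mcm7 does not depend on size factors. With 3 libraries a group, the 95% intervals of single genes reached from -1.04 (Ccne2) to 0.87 (Ccne1).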
